A study of Mus musculus with 2 samples.

Results

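Helicases of the DEAD-box (Ddx) and DEAH-box (Dhx) families, the RecQ family and related DNA helicases were followed in the hippocampus of Atrx mutant mice. The members are the genes whose symbol in the platform annotation begins with Ddx or Dhx and a digit, together with Blm, Wrn, Brip1, Rtel1, Recql, Recql4, Recql5 and Pif1. The array held 55 probes for 53 of these genes, of 16446 named genes in all: 31 Ddx genes, 15 Dhx genes and 7 of the named DNA helicases. Pif1 had no probe under that symbol. A gene counted as measured when a probe exceeded the mean of the blank spots by 2 SD in all channels, and this held for 51 members and for 13630 genes in all. The membership rule used gene names only and no measured value, but it was chosen with earlier results of these data known.

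Each RNA was a pool from the hippocampus of 5 mice. The 3 kinds of mice were wild type, AtrxdE2 (mice with the AtrxΔE2 allele of the X-linked chromatin remodeller gene Atrx) and AtrxdE2+TMPyP4, the same mutant given TMPyP4 intraperitoneally at 30 mg/kg, 2 times a week from postnatal day 30 to day 90. The sources used here give no strain, sex or age at dissection. One two-colour array carried AtrxdE2 (Cy3) against wild type (Cy5), and the other AtrxdE2+TMPyP4 (Cy3) against wild type (Cy5). With 1 array per pool and no dye swap, no value has a replicate, no p-value was computed, and dye and genotype cannot be told apart. Whether the untreated mice received a vehicle, and whether both arrays shared 1 wild-type pool, is not stated.

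Helicases use the energy of ATP to separate paired strands or to strip proteins from RNA and DNA. DEAD-box and DEAH-box proteins, named for the amino acids of a conserved motif, mostly act on RNA in splicing, ribosome assembly, mRNA export, translation and decay, while RecQ proteins, Brip1 and Rtel1 act on DNA at replication forks, repair sites and telomeres. Some of them, among them Blm, Wrn, Brip1, Rtel1, Ddx11, Dhx9 and Dhx36, unwind G-quadruplexes, four-stranded structures of guanine-rich DNA or RNA. ATRX binds chromatin at such guanine-rich repeats, and TMPyP4 is a cationic porphyrin that binds G-quadruplexes. In neurons, Ddx1, Ddx3x, Ddx5 and Ddx6 are known from RNA transport granules and from the control of local translation.

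The targeted gene was checked first. Atrx had a signal above the blank spots of 47.4 in wild type and 19.1 in AtrxdE2, with a log2 ratio of -0.68 (-1.96 in the authors' deposited table). On the other array it had 54.6 in wild type and 71.5 in AtrxdE2+TMPyP4, with a log2 ratio of -0.36 (-0.78 in the authors' deposited table), and where its probe lies along the transcript was not examined. Median signals of all probes were 42.2 (wild type) and 64.6 (AtrxdE2), then 36.0 (wild type) and 79.0 (AtrxdE2+TMPyP4). All 8 markers of hippocampal neurons on the array were measured, with medians of 0.00 (0.002573 before rounding) in AtrxdE2 and 0.02 in AtrxdE2+TMPyP4 (0.19 and 0.48 with median centring). Among them Snap25, a gene of vesicle fusion, had -0.67 and 0.59. The 11 measured oligodendrocyte markers of 16 listed were all below 0 in AtrxdE2 (median -0.54) and 10 of them in AtrxdE2+TMPyP4 (median -0.28), with sums of signal of 19012 and 18933, then 16916 and 26910. When each array was instead centred on its median, 1 of the 11 was above 0 in AtrxdE2 (median -0.30) and 6 in AtrxdE2+TMPyP4 (median 0.01). The 10 measured choroid plexus markers of 16 had a median of 0.02 in AtrxdE2 (-0.03 with median centring) and 1.43 in AtrxdE2+TMPyP4, with sums of 2719 and 4682, then 2377 and 74719. They ranged from -0.15 (Kcne2) to 1.59 (Ttr) in AtrxdE2 and from -0.0004 (Ace) to 6.59 (Ttr) in AtrxdE2+TMPyP4. For Ttr the authors' deposited table has 2.34 and 6.94. The median signal per marker was 32.3 in AtrxdE2 and 247.9 in AtrxdE2+TMPyP4, so the sums do not stand for the list evenly. Of 3 more that missed the rule in at least 1 channel, F5, Cldn2 and Aqp1, all were above background in AtrxdE2+TMPyP4, with signals of 39.9, 108 and 60.8. The 14 markers of meninges and fibroblasts had medians of 0.41 and 0.69, with sums of 1766 and 4357, then 1279 and 5413. These marker lists were drawn up with earlier results of these data known, so their medians are no independent check of the tissue. The part of these tissue differences in the helicase values was not tested, and in pooled tissue fewer cells of a type and less RNA per cell cannot be told apart.

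In both mutant pools the helicase genes as a whole lay close to wild type. The median log2 ratio of the 51 members was 0.04 (SD 0.20 over genes) in AtrxdE2, against 0.00 (-0.002856 before rounding, SD 0.19) for all 13630 genes, and it was -0.04 when the wild-type channel of the other array was used. In AtrxdE2+TMPyP4 the median was 0.03 (SD 0.17), against 0.01 (SD 0.20) for all genes. The median difference between the treated and the untreated pool was 0.01 (SD 0.24), against 0.02 (SD 0.26). Members above 0 numbered 30 of 51 in AtrxdE2, where 49.3% of all genes were, and 27 of 51 in AtrxdE2+TMPyP4, where 52.8% were. With arrays centred on their median in place of the intensity-dependent (loess) fit, 40 and 41 members were above 0 (medians 0.20 and 0.38), against 61.7% and 66.1% of all genes (medians 0.07 and 0.18). In AtrxdE2, 25 of the 51 members lay within 0.1 log2 units of wild type, a share of 49.0% against 47.8% of all genes. In AtrxdE2+TMPyP4 it was 23 members, or 45.1%, against 50.7%.

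**Figure D1:**
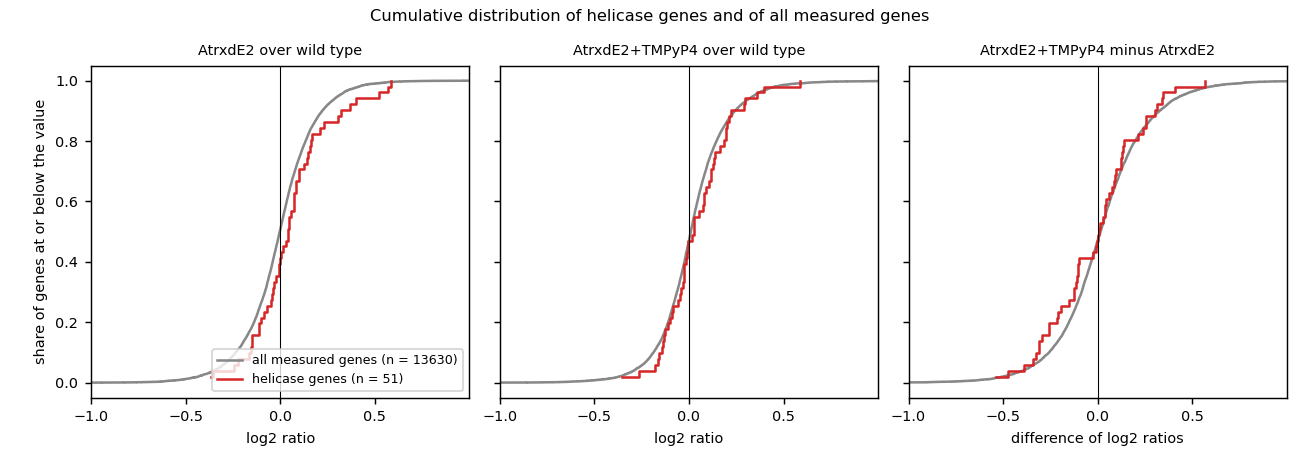
Share of genes (y axis) at or below each log2 ratio or difference of log2 ratios (x axis, from -1 to 1) for the 51 helicase genes (red) and all 13630 measured genes (grey). The red steps run close to the grey curve in all 3 panels and keep within -0.54 and 0.59.

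A fixed size of 1.3-fold (0.38 on the log2 scale) was used to count differences. In AtrxdE2, 4 of 51 members were higher by that size, against 2.73% of all genes, and 0 were lower, against 3.17%. In AtrxdE2+TMPyP4, 2 members were higher, against 3.69%, and 0 lower, against 1.86%. Between the treated and untreated pools 2 members were higher, against 7.34%, and 3 lower, against 4.50%, or 5 against 11.8% in both directions. After the loess fit none of the members reached 2-fold in any comparison. In AtrxdE2, 0.0220% of all genes were 2-fold higher and 0.00734% lower, 0.0293% together, and such genes made up 0.191% in AtrxdE2+TMPyP4 and 0.315% in the difference. With median centring the counts past 1.3-fold were 12 higher and 0 lower in AtrxdE2 (12.5% and 0.946% of all genes), 25 and 1 in AtrxdE2+TMPyP4 (32.2% and 1.38%), and 9 and 3 in the difference (19.1% and 3.27%). The wild-type channels of both arrays, which hold the same kind of RNA, were also set against each other after quantile normalization. There, 5 members were higher on the second array, against 6.49% of all genes, and 3 were lower, against 7.51%. The SD of that wild-type difference was 0.27 over the members and 0.27 over all genes. These differences lie between arrays within 1 dye, whereas each ratio over wild type lies within 1 array. They are therefore no measure of the spread of those ratios. The 5 higher and 3 lower members differed in the same direction between the Cy3 channels. For Ddx6 the wild-type and Cy3 differences were 0.88 and 0.55, and for Ddx4 they were -0.58 and -0.62.

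**Figure D2:**
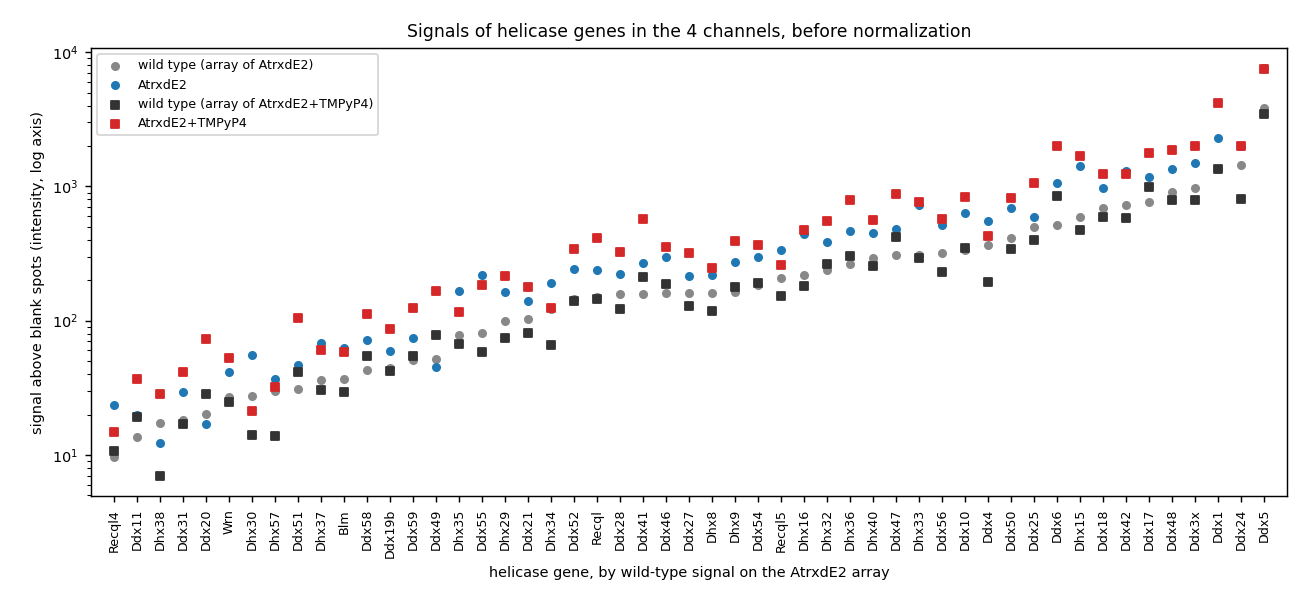
Signal above the blank spots (log axis, before normalization) of each measured helicase gene (x axis) in the 4 channels: wild type in grey and black, AtrxdE2 in blue, AtrxdE2+TMPyP4 in red. The mutant (Cy3) channels lie above the wild-type ones for most genes, with Dhx38, Ddx20 and Ddx49 below in AtrxdE2, and the members' medians were 161.2 and 152.7 in the wild-type channels, 268.8 in AtrxdE2 and 351.1 in AtrxdE2+TMPyP4.

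The Cy3 channel was also the brighter one over all probes, so no ratio was taken from raw levels of the 2 dyes and no gene was ranked by them.

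Since TMPyP4 binds G-quadruplexes, promoters were searched for 4 runs of GGG separated by 1 to 7 bases of any kind (N), on both strands, with overlapping matches counted once. RefSeq promoter windows (assembly GRCm38.p6, 250 bases before to 50 after the start) were found for 48 of the 53 members. Ddx6, Ddx11, Dhx38, Recql4 and Wrn had none. A gene was counted when any of its windows held the motif. The motif stood in 7 of the 48 (14.6%) and in 5 of the 46 measured members (10.9%). The shares were 29.8% of 10932 measured genes with a window and 20.4% of all 27025 genes with a window. Counted by window, 18.5% of all 32851 windows held it. The gap in these shares was not tested. Median GC content was 60.2% for these 46 members and 60.0% for the 10932 genes. A match is a description of letters and not evidence of a folded structure. The 7 genes are Brip1, Rtel1, Ddx5, Ddx31, Ddx48 (now Eif4a3), Ddx58 and Dhx32. Matches that lay wholly before the start are shown to make the guanine runs visible, written 5′ to 3′ along the gene's own strand, with the match in capitals and runs of C where the guanines are on the opposite strand. Brip1 (chr11:86201345-86201382, minus strand), Rtel1 (chr2:181319599-181319639, plus strand), Ddx5 (chr11:106789210-106789252 and, at another start of the same gene, chr11:106788595-106788630, minus strand), Ddx31 (chr2:28840292-28840339, plus strand), Eif4a3 (chr11:119300241-119300280, minus strand) and Dhx32 (chr7:133776915-133776954, minus strand) read as follows.
Brip1: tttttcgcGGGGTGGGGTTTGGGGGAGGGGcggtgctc
Rtel1: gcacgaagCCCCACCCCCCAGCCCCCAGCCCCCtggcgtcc
Ddx5: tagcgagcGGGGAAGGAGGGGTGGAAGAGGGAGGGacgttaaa
Ddx5, other start: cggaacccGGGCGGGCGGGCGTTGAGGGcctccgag
Ddx31: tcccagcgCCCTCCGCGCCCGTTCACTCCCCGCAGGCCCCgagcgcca
Eif4a3: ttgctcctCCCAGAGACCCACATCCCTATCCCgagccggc
Dhx32: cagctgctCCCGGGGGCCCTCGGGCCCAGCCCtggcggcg

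The measured members with and without the motif had median ratios in AtrxdE2 of 0.04 (SD 0.18, n = 5 genes) and 0.04 (SD 0.21, n = 41 genes). In AtrxdE2+TMPyP4 the medians were -0.03 (SD 0.08) and 0.07 (SD 0.19), and for the difference between pools -0.10 (SD 0.25) and 0.03 (SD 0.23). These gaps were not tested. Among all measured genes with a window, the medians with and without the motif were 0.00 and 0.01 in AtrxdE2+TMPyP4.

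The RecQ helicases and Ddx11, which open DNA structures at replication forks and repair sites, lay between -0.03 and 0.13 in AtrxdE2. Their median was 0.04 (SD 0.05, n = 6 genes) there and -0.05 (SD 0.19) in AtrxdE2+TMPyP4, or 0.07 and -0.08 with median centring. Wrn, the exonuclease-bearing RecQ helicase of Werner syndrome, had signals of 27.1 in wild type and 41.4 in AtrxdE2 on the first array, with 25 in wild type and 53.0 in AtrxdE2+TMPyP4 on the second. Its log2 ratios were 0.00 (-0.00114 before rounding) and -0.01, and the wild-type channels differed by 0.05. Blm, which dissolves recombination intermediates together with topoisomerase III alpha, had signals of 37.0 and 62.3, then 29.5 and 58.9. Its log2 ratios of 0.07 and -0.04 were both below the spread of the 500 genes closest to it in brightness (SD 0.15 and 0.18). Neither gene differed between the pools by more than that spread.

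Recql, a RecQ helicase that helps to restart stalled forks, was level in AtrxdE2 and higher in the treated pool. Its signals were 149.4 in wild type and 239.0 in AtrxdE2, then 146.3 in wild type against 415.2 in AtrxdE2+TMPyP4. Its ratio was 0.04 in AtrxdE2 and 0.30 in AtrxdE2+TMPyP4 (0.33 in the authors' deposited table, 0.65 with median centring), and the Cy3 channels alone differed by 0.39. Recql5, which restrains recombination and RNA polymerase II, had the opposite pattern. Its signals were 207.5 and 335.1, then 152.7 and 261.3. The log2 ratio was 0.04 in AtrxdE2 and -0.27 in AtrxdE2+TMPyP4 (-0.40 in the authors' deposited table, 0.04 with median centring), with -0.57 between the Cy3 channels and -0.19 between the wild-type channels. The SD of genes of like brightness was 0.31 for both differences, so neither the 0.26 of Recql nor the -0.31 of Recql5 stands clear of it.

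Recql4, a replication factor mutated in Rothmund-Thomson syndrome, was near the limit of detection. Its signals above the blanks were 9.64 in wild type and 23.6 in AtrxdE2, then 10.8 in wild type against 14.7 in AtrxdE2+TMPyP4. Its ratio was 0.13 in AtrxdE2 and -0.13 in AtrxdE2+TMPyP4, and the authors' deposited table has 0.64 and -0.73. The difference of -0.26 exceeded the SD of 0.12 over genes of like brightness. With the wild type of the other array the ratios were 0.03 and -0.04. For every gene, such ratios take in the wild-type difference between arrays, so they are no check on the difference between the pools. Ddx11, an iron-sulphur helicase of sister chromatid cohesion, had signals of 13.6 and 19.8, then 19.3 and 37.0, and ratios of -0.03 and -0.06 (-0.11 and -0.23 in the authors' deposited table).

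Brip1 and Rtel1, the iron-sulphur helicases of crosslink repair and of telomeres, were not measured. Brip1 was not well above background in any channel. Rtel1 was above background in AtrxdE2 alone, with a signal of 9.20 there against 2.05 in wild type on the same array, and no ratio was taken from these values. On the second array neither channel was above background.

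The DEAH-box helicases best known for resolving G-quadruplexes had ratios within 0.2 log2 units of wild type in both pools in the main processing. Dhx36, which binds G-quadruplexes of DNA and RNA with high affinity, had signals of 264.2 in wild type and 468.6 in AtrxdE2, then 303.1 in wild type against 790.0 in AtrxdE2+TMPyP4. Its log2 ratios were 0.16 and 0.18, with an SD of 0.23 and 0.22 over genes of like brightness, and against the wild type of the other array they were -0.19 and 0.52. With median centring they were 0.38 and 0.65, both past 1.3-fold. Dhx9, RNA helicase A, had signals of 162.9 and 274.9, then 179.1 and 389.1. Its ratios were 0.10 and -0.02, with -0.16 and 0.24 against the wild type of the other array and 0.28 and 0.35 with median centring. The wild-type channels differed between arrays by 0.34 for Dhx36 and 0.25 for Dhx9, which is no measure of the spread of the ratios.

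**Figure D3:**
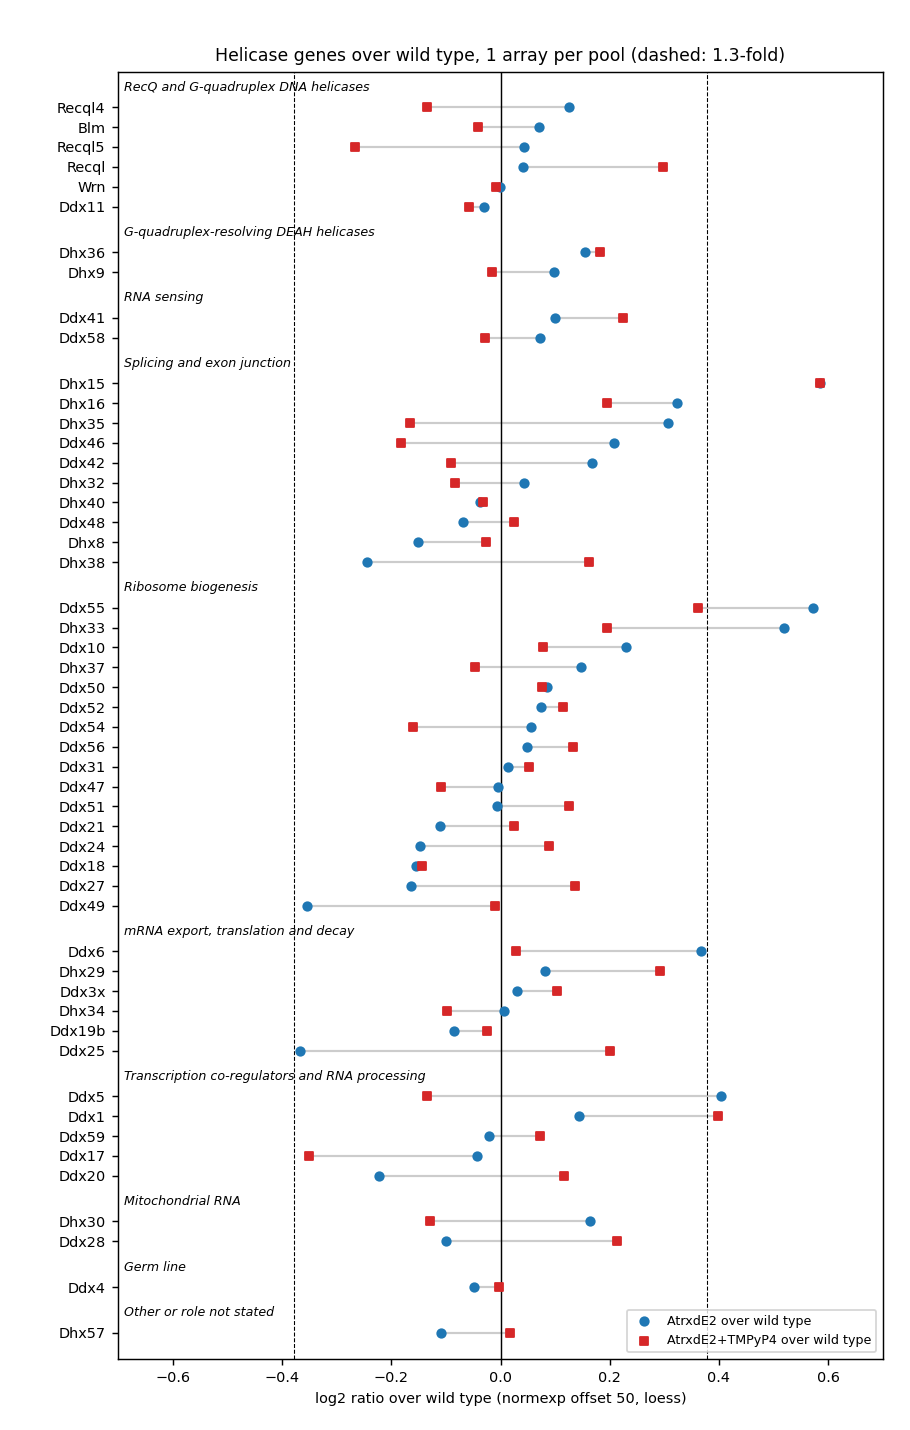
Log2 ratio over wild type (x axis) of each measured helicase gene, grouped by role, in AtrxdE2 (blue circles) and AtrxdE2+TMPyP4 (red squares), 1 array each; grey lines join the pools and dashed lines mark 1.3-fold. Dhx15 is at 0.59 and 0.58 and is past 1.3-fold in both pools, while the RecQ genes and their relatives lie between -0.27 and 0.30.

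Among helicases of splicing, Dhx15 stood furthest from wild type. It encodes the mammalian counterpart of yeast Prp43, which takes apart spliceosomes after the reaction and also serves ribosome assembly. Dhx15 had signals of 589.3 in wild type and 1422 in AtrxdE2 on the first array, with 475.0 in wild type and 1688 in AtrxdE2+TMPyP4 on the second. Its log2 ratio was 0.59 in AtrxdE2 and 0.58 in AtrxdE2+TMPyP4, each 1.5-fold, with an SD of 0.23 and 0.37 over genes of like brightness. In AtrxdE2+TMPyP4 that SD was 0.37 also for Ddx18 and Ddx42, but 0.23 for Ddx6 and Ddx17, which were slightly brighter. The reason for this gap was not tested, so the 0.37 is no firm measure of the spread. For Dhx15 the authors' deposited table has log2 ratios of 0.62 and 0.66. Against the wild type of the other array the ratios were 0.66 and 0.51. With median centring they were 0.85 and 1.125, the latter past 2-fold. The pools themselves lay level, with a difference of 0.00 (-0.000456 before rounding) and -0.10 between the Cy3 channels. Both ratios rest on wild-type RNA in the same dye, so they are not independent of each other.

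The 10 splicing members, Dhx15 among them, were spread on both sides of 0, with 6 above 0 in AtrxdE2 (median 0.10) and 4 in AtrxdE2+TMPyP4 (median -0.03), or 9 and 8 with median centring. Dhx35, a DEAH protein of the catalytic spliceosome, was higher than wild type in the untreated pool and lower in the treated one. Its signals were 78.9 in wild type and 165.0 in AtrxdE2, then 66.7 in wild type against 116.6 in AtrxdE2+TMPyP4, which gives log2 ratios of 0.31 and -0.17. The difference of -0.47 (SD 0.29 over genes of like brightness) was -0.58 in the Cy3 channels alone, and the wild-type channels differed by only -0.03. Ddx46, the counterpart of yeast Prp5 that prepares the branch site, had signals of 159.8 and 296.9, then 186.6 and 351.1, and log2 ratios of 0.21 and -0.18. Its difference of -0.39 was -0.21 with median centring and -0.08 in the Cy3 channels alone, and the wild-type channels differed by 0.32. Past 1.3-fold in the mutant channels themselves was thus Dhx35 and not Ddx46.

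Dhx38, the Prp16 counterpart of the second splicing step, was dim throughout. It had signals of 17.3 in wild type and 12.3 in AtrxdE2, then 6.98 in wild type against 28.5 in AtrxdE2+TMPyP4. The log2 ratios were -0.25 and 0.16, a difference of 0.41 (0.27 with median centring) against an SD of 0.13 over genes of like brightness, and the authors' deposited table has -1.15 and 0.86. Against the wild type of the other array the ratios were -0.09 and 0.01. Dhx16 (Prp2, with 0.32 and 0.20), Ddx42 (an SF3B-associated protein, 0.17 and -0.09), Dhx8 (Prp22, -0.15 and -0.03) and Ddx48 (Eif4a3 of the exon junction complex, -0.07 and 0.03) did not reach 1.3-fold in either pool in the main processing. Nor did Dhx32 (0.04 and -0.08) and Dhx40 (-0.04 and -0.03). With median centring Dhx16 (0.54 and 0.58) and Ddx42 (0.43 and 0.44) were past it in both pools, and Ddx48 (0.59) and Dhx40 (0.40) in AtrxdE2+TMPyP4.

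Ribosome assembly holds the most members, 16, of which 9 were above 0 in AtrxdE2 (median 0.03, SD 0.24) and 11 in AtrxdE2+TMPyP4 (median 0.08, SD 0.13), or 12 and 14 with median centring. Ddx55, a nucleolar helicase of the large subunit, had signals of 80.3 in wild type and 217.1 in AtrxdE2, then 58.8 in wild type against 185.8 in AtrxdE2+TMPyP4. Its log2 ratio was 0.57 in AtrxdE2 (SD 0.21 over genes of like brightness, 0.78 in the authors' deposited table) and 0.36 in AtrxdE2+TMPyP4 (0.49 there). Dhx33, which promotes rRNA transcription, had signals of 310.4 and 729.8, then 292.4 and 768.6, and log2 ratios of 0.52 and 0.20 (0.66 with median centring). Both genes had a lower value in the treated pool, with differences of -0.21 and -0.32 that are near the SD of 0.28 and 0.31 over genes of like brightness. Against the wild type of the other array, Ddx55 was at 0.71 in AtrxdE2 and Dhx33 at 0.42.

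At the lower end of this group was Ddx49, a helicase of pre-rRNA processing. Its signals were 51.4 in wild type and 45.6 in AtrxdE2, then 78.4 in wild type against 165.1 in AtrxdE2+TMPyP4. The log2 ratio was -0.35 in AtrxdE2 (-0.83 in the authors' deposited table) and -0.01 in the treated pool, and the wild-type channels differed by 0.44. Ddx27, which acts in 28S rRNA maturation, had -0.16 and 0.14 (0.45 with median centring). Ddx54 had 0.06 and -0.16 from its single measured probe, its other probe being below background. The remaining 11 genes of the group, Ddx10, Ddx18, Ddx21, Ddx24, Ddx31, Ddx47, Ddx50, Ddx51, Ddx52, Ddx56 and Dhx37, lay between -0.15 (Ddx18, -0.155 before rounding) and 0.23 (Ddx10) in AtrxdE2 and between -0.14 (Ddx18) and 0.13 (Ddx56) in AtrxdE2+TMPyP4. With median centring Ddx10 (0.47 and 0.56) was past 1.3-fold in both pools. So were Ddx18 (0.39), Ddx24 (0.65), Ddx47 (0.39), Ddx50 (0.56), Ddx52 (0.44) and Ddx56 (0.56) in AtrxdE2+TMPyP4.

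Among helicases of mRNA export, translation and decay, Ddx25 differed most between the mutant pools. It encodes a helicase studied in germ cells, where it carries mRNA out of the nucleus. Ddx25 had signals of 496.8 in wild type and 588.8 in AtrxdE2, then 397.9 in wild type against 1057 in AtrxdE2+TMPyP4. The log2 ratio was -0.37 in AtrxdE2 and 0.20 in AtrxdE2+TMPyP4, a difference of 0.57 or 1.48-fold (SD 0.29 over genes of like brightness, 0.65 in the authors' deposited table). With the local background as the background level the difference was 1.60, so its size depends on that step. The Cy3 channels alone differed by 0.47 and the wild-type channels by -0.09, and the ratios were -0.28 and 0.11 against the wild type of the other array. With median centring they were -0.12 and 0.71.

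Ddx6, which drives decapping and holds repressed mRNA in processing bodies, shows the opposite case. Its signals were 513.9 in wild type and 1063 in AtrxdE2, then 845.6 in wild type against 1999 in AtrxdE2+TMPyP4. Its ratio was 0.37 in AtrxdE2 and 0.03 in AtrxdE2+TMPyP4, but the wild-type channels differed by 0.88, the largest such value among the members, and against the wild type of the other array the ratios were -0.52 and 0.91. Ratios against the other array's wild type take in this difference between arrays. The Cy3 channels alone differed by 0.55, so both dyes were brighter on the second array, while the difference of ratios was -0.34. No direction between the pools can be read for Ddx6. With median centring its ratios were 0.63 and 0.59. Dhx29, a helicase of initiation on structured 5′ leaders, had 0.08 and 0.29 (0.50 with median centring), with signals of 99.4 and 164.1, then 74.8 and 215.6.

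Ddx3x, an X-linked helicase of translation initiation, had 2 measured probes that disagreed. One had log2 ratios of -0.20 in AtrxdE2 and -0.04 in AtrxdE2+TMPyP4, and the other had 0.26 and 0.25. Their means were 0.03 and 0.10 (0.29 and 0.67 with median centring). In AtrxdE2 the probes of this gene thus lay on opposite sides of wild type. Ddx3y, the Y-linked paralog, and Ddx19a, the paralog of the mRNA export helicase Ddx19b (-0.09 and -0.02), had no probe under those symbols. Cross-hybridisation between close paralogs was not tested, since probe sequences were not used here.

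Ddx5 and Ddx17 are paralogs that act together as transcription coactivators and in microRNA processing and splicing, and they were set side by side. Ddx5 had signals of 3814 in wild type and 7585 in AtrxdE2, then 3474 in wild type against 7438 in AtrxdE2+TMPyP4. Its log2 ratio was 0.40 in AtrxdE2 and -0.14 in AtrxdE2+TMPyP4, the latter 0.49 with median centring. The difference of -0.54 (1.45-fold, SD 0.31 over genes of like brightness) was the lowest among the members in the main processing. With plain subtraction it was -0.53, when Recql4 had -1.37, and with median centring it was -0.14. The Cy3 channels alone differed by -0.43 and the wild-type channels by 0.09. Ddx17 had signals of 769.9 and 1168, then 982.4 and 1764. Its ratios were -0.04 and -0.35 (0.22 with median centring), but the wild-type channels differed by 0.56 and the Cy3 channels by 0.24, both higher on the second array. The treated value was lower than the untreated one for both paralogs as ratios, and for Ddx5 alone in the mutant channels themselves.

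**Figure D4:**
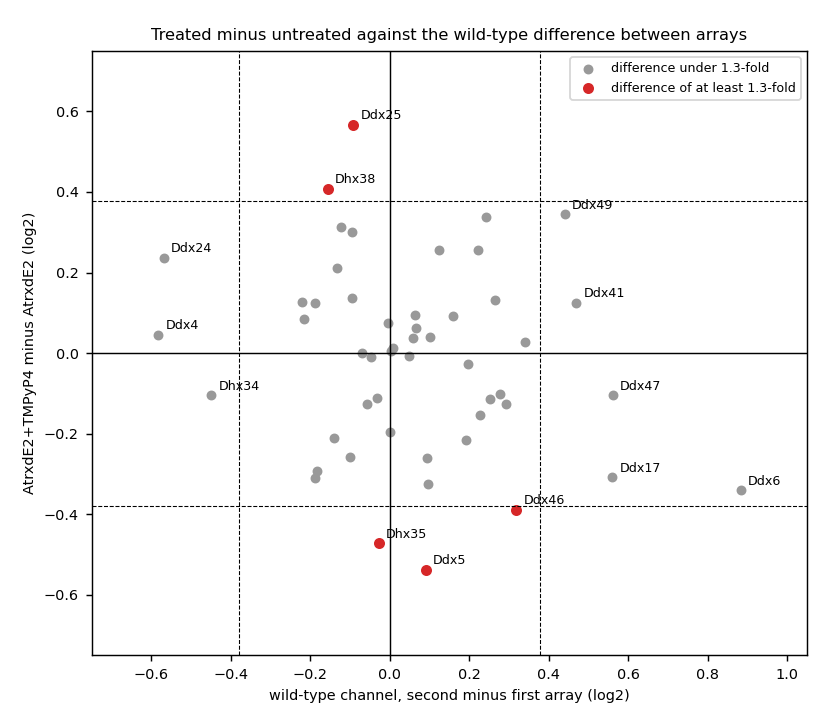
Difference of log2 ratios, AtrxdE2+TMPyP4 minus AtrxdE2 (y axis), against the difference of the wild-type channels between arrays (x axis, log2) for the 51 helicase genes, with 1.3-fold as dashed lines. Ddx25, Dhx35, Ddx5 and Dhx38 lie past 1.3-fold with a wild-type difference between -0.16 and 0.09, whereas Ddx46 has 0.32, and Ddx6 and Ddx17 lie at 0.88 and 0.56.

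The remaining co-regulators pointed different ways. Ddx1, a component of RNA granules and of the tRNA ligase complex, was higher in both pools and past 1.3-fold in the treated one. It had signals of 1337 in wild type and 2294 in AtrxdE2, then 1350 in wild type against 4181 in AtrxdE2+TMPyP4. The log2 ratio was 0.14 in AtrxdE2 (-0.08 against the wild type of the other array) and 0.40 in AtrxdE2+TMPyP4 (0.46 in the authors' deposited table, 0.62 against the wild type of the other array). With median centring the ratios were 0.40 and 0.99, both past 1.3-fold. Ddx20, the Gemin3 subunit of the SMN complex, had signals of 20.1 and 17.0, then 28.6 and 73.4. Its ratios were -0.22 and 0.12 (-0.89 and 0.19 in the authors' deposited table). Ddx59 had -0.02 and 0.07.

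Members of smaller groups stayed under 1.3-fold in both pools in the main processing. With median centring Ddx41 (0.64) and Ddx28 (0.52) were past it in AtrxdE2+TMPyP4, and with plain subtraction Dhx30 (0.40 and -0.58) was past it in both pools. The RNA sensor Ddx58 (RIG-I), which detects viral double-stranded RNA, had 0.07 and -0.03, with signals of 42.6 and 71.3, then 54.7 and 111.7. Ddx41, a sensor of cytosolic DNA that also associates with spliceosomes, had 0.10 and 0.22. Of the helicases of mitochondrial RNA, Ddx28 had -0.10 and 0.21, and Dhx30 had 0.16 and -0.13 (0.36 and -0.58 in the authors' deposited table). The germ-line helicase Ddx4 (the Vasa homolog) had -0.05 and 0.00 (-0.003075 before rounding), with a wild-type difference of -0.58. Dhx34, of nonsense-mediated decay, had 0.01 and -0.10, and Dhx57 had -0.11 and 0.02 (-0.34 and 0.04 in the authors' deposited table).

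By family, the 31 Ddx genes had a median of 0.00 (-0.004518 before rounding, SD 0.20) in AtrxdE2 and 0.05 (SD 0.16) in AtrxdE2+TMPyP4. The 15 Dhx genes had 0.10 (SD 0.23) and -0.02 (SD 0.20). The 5 measured genes of the RecQ family had 0.04 (SD 0.05) and -0.04 (SD 0.21), with 4 of 5 above 0 in AtrxdE2 and 1 of 5 in AtrxdE2+TMPyP4. With median centring the medians were 0.20 and 0.44 for Ddx, 0.20 and 0.35 for Dhx, and 0.09 and -0.07 for RecQ genes, so the sign of the Ddx median in AtrxdE2 and of the Dhx median in AtrxdE2+TMPyP4 turned.

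Other helicases and G-quadruplex genes were taken from lists of known function, drawn up with earlier results of these data known. Of 48 listed symbols of other RNA and DNA helicases, 35 were measured, with a median of 0.03 (SD 0.14) in AtrxdE2 and 0.05 (SD 0.14) in AtrxdE2+TMPyP4 (0.17 and 0.24 with median centring), and 0 past 1.3-fold in either pool (5.90% and 5.55% of all genes). In AtrxdE2 the lowest were the translation initiation helicase Eif4a1 (-0.28) and the replicative helicase subunit Mcm6 (-0.21), and the highest Dqx1 (0.27) and the nonsense-mediated decay helicase Upf1 (0.23). In AtrxdE2+TMPyP4 they were Mcm6 (-0.26) and Upf1 (-0.17), and Bat1a (0.32) and Ascc3 (0.29). Of 48 symbols of G-quadruplex binding proteins and RecQ partners, 36 were measured, with medians of 0.08 (SD 0.21) and 0.01 (SD 0.20). With median centring these medians were 0.17 and 0.30. In AtrxdE2, 2 of them were higher and 1 lower by 1.3-fold, against 2.73% and 3.17% of all genes. In AtrxdE2+TMPyP4 1 was higher and 2 lower, against 3.69% and 1.86%. Atrx (-0.68) and Sub1 (-0.36) were lowest and the RNA-binding protein genes Ewsr1 (0.46) and Pura (0.41) highest in AtrxdE2. In the treated pool topoisomerase gene Top2a (-0.42, and -2.02 in the authors' deposited table) and Nucks1 (-0.40) were lowest, and Fmr1 (0.44), which encodes the fragile X protein, and the replication protein A subunit gene Rpa3 (0.35) highest.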

How the data were processed

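Spot intensity and local background in both channels came from the deposited scanner output, in which the authors had merged several scanner gains per spot, per the file headers. Cy5 carried wild type and Cy3 the mutant pool, per the labels. The authors' own deposited log2 ratios (mutant over wild type, per the labels) were used as an alternative, and their background step and centring are unknown.

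The trimmed mean of 2736 blank spots per array (a share of 0.05 dropped at each end) served as background for normexp (offset 50), followed by loess within each array, in limma 3.58.1 under R 4.3.3, with control spots at weight 0. This was tested on simulated data, in which it returned ratios closer to 0 than those put in, so counts past 1.3-fold and 2-fold can be too low. For some genes the authors' ratios stand beside it. Probes of a gene were averaged. Of 23473 probes, 16631 had 1 symbol in the platform annotation, 0 several and 6842 none. RefSeq (GRCm38.p6) updated 1 member's symbol. The number of arrays limits the precision.

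Members and lists were chosen with earlier results of these data known. Named were the RecQ, iron-sulphur and G-quadruplex helicases, the 5 highest and 5 lowest members of each comparison, members past 1.3-fold in both pools, paralog pairs, members not above background, and the 2 highest and 2 lowest genes of each pathway list. Other members are given briefly so that each is accounted for.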

Additional observations from a re-analysis of the deposited data

Results flagged for a closer look

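For 5 genes the mutant pools lay on opposite sides of wild type and differed by at least 1.3-fold. They are the 5 of 51 members past 1.3-fold in the difference, where 11.8% of all genes were. The share of all genes that meet both conditions was not computed. The difference, treated minus untreated, was 0.57 for Ddx25, 0.41 for Dhx38, -0.39 for Ddx46, -0.47 for Dhx35 and -0.54 for Ddx5, on the log2 scale with 1 array per pool, and it was not tested. With median centring it was 0.82, 0.27, -0.21, -0.46 and -0.14 in the same order, and Dhx38, Ddx46 and Ddx5 then had both pools on the same side of wild type and differed by less than 1.3-fold. Between the Cy3 channels alone it was 0.47, 0.28, -0.08, -0.58 and -0.43 for these genes. Rtel1 had a signal of 9.20 above the blanks in AtrxdE2, while its other 3 channels were not above background.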

How the results depend on the processing

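Under settings not named here, the medians moved by less than 0.05, the members' median difference between the wild-type channels. Median centring in place of loess gave medians of 0.20 (AtrxdE2), 0.38 (AtrxdE2+TMPyP4) and 0.16 (difference), when all genes had 0.07, 0.18 and 0.06. Probes above the median signal gave 0.0769 in AtrxdE2+TMPyP4 (35 members). With the wild type of the other array, a setting added after seeing the data, they were -0.0418 and 0.1001. Counts past 1.3-fold, 4, 2 and 5 at first, were 13 (9 higher, 4 lower), 8 (5 and 3) and 14 (5 and 9) with plain subtraction, and 10 (6 and 4), 5 (4 and 1) and 10 (4 and 6) with an offset of 10. The authors' value table gave 10 (6 and 4), 7 (4 and 3) and 13 (6 and 7). Median centring gave 12 (12 and 0), 26 (25 and 1) and 12 (9 and 3). The difference had 12 (7 and 5) with the local background and 3 (1 and 2) among probes above the median signal. In AtrxdE2, the local background gave 6 (5 and 1). With the wild type of the other array 12 (7 and 5) and 13 (9 and 4) were past 1.3-fold, and with the Cy3 channels alone, also added later, 17 (9 and 8). Of all genes, 5.90%, 5.55% and 11.8% were past that size at first, 22.6%, 20.8% and 34.0% with plain subtraction, 12.0%, 10.7% and 21.8% with an offset of 10, 23.4%, 21.8% and 34.8% in the authors' value table, and 13.5%, 33.6% and 22.4% with median centring. The local background gave 9.05% in AtrxdE2 and 22.5% for the difference, and probes above the median signal 17.9% for the difference. The wild type of the other array gave 21.4% and 19.9%, and the Cy3 channels 27.6%. The cause was not tested. Of the 11 member values past 1.3-fold, 0 changed sign, but some came under that size. These were Ddx46, Ddx5 and Dhx38 (difference) with median centring, Ddx1 (AtrxdE2+TMPyP4, 0.32) and Dhx38 (0.33) with the local background, Ddx5 (AtrxdE2) in the authors' value table (0.34) and with the wild type of the other array (0.31), and Ddx46 and Dhx38 with the Cy3 channels alone. Dhx35 and Dhx38 had no probe above the median signal. No paired analysis was possible because each mutant pool has 1 array. No replicate could be left out for the same reason.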

Other observations

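The astrocyte, microglia and proliferating cell marker lists give the remaining values of the tissue. The 9 astrocyte markers had medians of 0.01 in AtrxdE2 and 0.11 in AtrxdE2+TMPyP4, the 10 microglia markers -0.04 and -0.14, and the 7 measured markers of proliferating cells 0.00 (-0.0007815 before rounding) and -0.12. With median centring the astrocyte medians were 0.13 and 0.40, the microglia medians 0.17 and 0.30, on the other side of 0, and those of proliferating cells -0.02 and -0.23. Members whose wild-type channels differed by at least 1.3-fold between arrays were Ddx6 (0.88), Ddx47 (0.56), Ddx17 (0.56), Ddx41 (0.47) and Ddx49 (0.44) on the higher side and Ddx4 (-0.58), Ddx24 (-0.57) and Dhx34 (-0.45) on the lower side. These are 8 of 51 members between channels with the same genotype label, where 14.0% of all genes differed by that size.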
